A study of Mus musculus with 7 samples.

Results

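The 5S ribosomal RNA (5S rRNA) copies described here are all transcripts of the deposited count files whose symbol is 5S_rRNA or begins with n-R5s. There were 150 of them, 19 named 5S_rRNA and 131 named n-R5s, among 26792 annotated transcripts of 13218 genes. GENCODE vM1, on the mm9 build, lists 309 5S entries, so 150 of 309 were in the files. All 150 have a single exon and lie on 21 chromosomes, and each is both a gene and a transcript.

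5S rRNA is the smallest RNA of the large ribosomal subunit. It is made by RNA polymerase III from clustered gene copies, with a promoter inside the gene that is bound by the zinc finger factor TFIIIA. Before it joins the ribosome it is held by the ribosomal proteins RPL5 and RPL11. Mammalian genomes also carry many scattered, diverged 5S-like copies, most of which are taken to be pseudogenes.

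The samples were lysates of the mouse embryonic stem cell (ESC) line E14, of the 129/Ola strain, grown with LIF. Lysates were treated with Proteinase K and then, after lysis, with DMS (a pool of aliquots at 50 to 200 mM), with CMCT (a pool at 10 to 50 mM), or left without reagent (NT, a pool of the aliquots that received 0 mM DMS and 0 mM CMCT), with 2 biological replicates each. DMS modifies mainly unpaired A and C, CMCT mainly unpaired U and G, and reverse transcription (RT) stops next to a modified base. CIRS-seq counts these stops at each position, and the RNA of all groups was depleted of ribosomal RNA before RT.

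The 6 libraries held 140186204 to 247369982 counts with each genomic position taken once per gene. In 1 RNA-seq library of the same line, with 31857551 alignments, the pluripotency genes Pou5f1, Nanog and Sox2 had 2391, 1773 and 1209 alignments per kb of exon, and the fibroblast genes Col1a1, Col3a1 and Dcn had 1.37, 0.357 and 1.03. The endoderm genes Gata4 and Gata6 had 48.3 and 97.1, and Afp had no alignment. The RNA-seq library, also depleted of ribosomal RNA, had 13 alignments centred in any 5S copy, 1 in each of 13 copies.

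Within chr8:126062686-126147645, on the minus strand, lie 42 of the 150 copies, here called the array. Of these, 25 have the same 119 bases, which are also the majority sequence of the 75 copies of that length. Copies outside the array number 108. The most counted copy, n-R5s122 (chr8:126099976-126100094), is 1 of the 25 identical copies and serves as the reference for positions, counted from 1 at its 5′ end.

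The array also holds copies that differ from this sequence by 1 base. Their counts differ from those of n-R5s122 at defined positions. Named by the base of n-R5s122, its position and the base of the copy, the T62A copies are n-R5s130 (chr8:126113554-126113672), n-R5s106 and n-R5s118, the C44T copies are n-R5s120 (chr8:126096610-126096728), n-R5s112 and n-R5s125, and the T33C copy is n-R5s136 (chr8:126123761-126123879). T stands for U. A further copy, n-R5s193, lies on another chromosome (chr4:149191841-149191949, plus strand), and its first 90 bases equal those of n-R5s122.

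The first question was which copies carried the RT stops. Each of the 25 identical copies had 126560 counts in NT replicate 1 and 23198 in NT replicate 2. In DMS replicate 1 each had 268956 or 268957, and in DMS replicate 2 13174 or 13175. In CMCT the counts were 46186 or 46187 in replicate 1 and 27080 or 27081 in replicate 2. Thus the identical copies carried the same counts to within 1, and in each of them the DMS replicates summed to 282131 and the CMCT replicates to 73267.

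None of the 25 identical copies has a position whose following 25 bases occur once in the genome. Of the 150 copies, 40 have no such position. Counts of copies that share such stretches are not separate measurements, and a sum over copies may hold the same read more than once. Each library total exceeds the number of reads the paper gives per treatment, so the totals count some reads more than once. How reads that map to more than 1 locus were counted is not given in the sources used here.

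In NT replicate 1 the 25 identical copies held 62.5% of all 5S counts, the other 17 array copies 31.1% and the 108 copies elsewhere 6.45%. The share of the copies elsewhere was 13.9% in NT replicate 2, 4.94% and 9.93% in the DMS replicates, and 15.4% and 21.9% in the CMCT replicates. The copies elsewhere thus held a smaller share than the array in each library, and their share was highest in CMCT, where both replicates lay above all 4 NT and DMS libraries.

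A copy was called above the rest where its RT stops per base were at least 10 times the median of the 150 copies in every one of the 6 libraries. This held for 44 copies, 40 of the array and 4 elsewhere. The 4 elsewhere were n-R5s193, n-R5s151 (chr7:17057162-17057280), n-R5s1 (chr Y) and n-R5s56 (chr13:104186282-104186386). The copy just inside the threshold, n-R5s56, had at least 10.9 times the median in every library, and the copy just outside, n-R5s64, had 8.41 times in its lowest, CMCT replicate 2. At 30 times the median no copy passed in all 6 libraries.

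The 2 array copies below the threshold were n-R5s127 and the 5S_rRNA copy ENSMUST00000093696 (chr8:126147537-126147645). The latter, which has 109 bases, had 10291 and 1894 counts in NT, 25921 and 2858 in DMS, and 8489 and 7636 in CMCT. It shares with n-R5s122 the run from position 36 to 119 without a change. Its counts lay below those of the identical copies in every library.

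n-R5s193 had counts close to those of the identical copies in NT and DMS and farther below them in CMCT. Its identity to n-R5s122, the matching bases as a share of the longer of both sequences, is 83.2%, and it is the shorter, with 109 bases. It had 124693 and 22036 counts in NT, 266260 and 12608 in DMS, and 39851 and 20816 in CMCT. Its unbroken run shared with n-R5s122 is positions 1 to 90. n-R5s56, with 77.3% identity, shares positions 38 to 83 and had 26149 and 18591 counts in NT, 24996 and 4395 in DMS, and 17188 and 16449 in CMCT. Both had counts far above the median copy.

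At the other end, n-R5s189 (chr4:94729341-94729454) had the fewest counts over the 6 libraries together (146), with 9 and 10 in NT, 2 and 1 in DMS, and 62 in each CMCT replicate. It matches n-R5s122 at 67.2% of bases, and its longest shared run has 13 bases. The median copy had 524 and 363 counts in NT, 240 and 189 in DMS, and 1686 in each CMCT replicate. Per base, the median copy had 4.50 counts in NT replicate 1 and the median of all genes 1.12, and in CMCT replicate 1 these were 14.4 and 1.65. In the DMS replicates they lay closer, 2.12 and 1.27 in replicate 1 and 1.59 and 1.37 in replicate 2.

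Among the 108 copies elsewhere, counts were lower the farther a copy lay from the n-R5s122 sequence. The 5 copies with at least 95% identity had a median of 3581 counts in NT replicate 1, the 12 from 90% to 95% a median of 2372, the 26 from 80% to 90% a median of 298.5 and the 65 below 80% a median of 21. In CMCT replicate 1 the 4 medians were 10866, 8116, 1431 and 209. Across these 108 copies, Spearman's rho between identity and counts was 0.728 to 0.779 in the 6 libraries, a description over copies that share sequence and library. The plot of counts by identity shows most array copies at the top, with a few scattered copies, such as n-R5s193, among or above them.

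**Figure D1:**
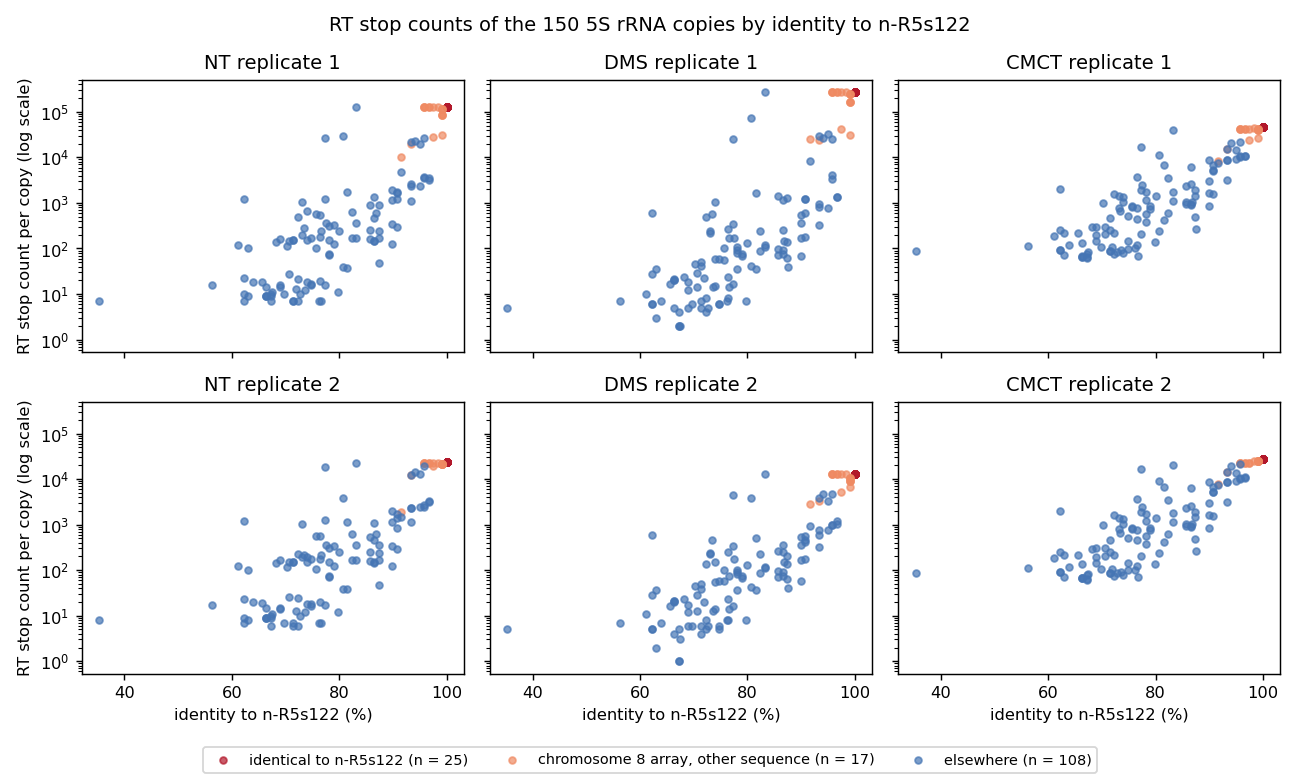
RT stop counts of each 5S copy (y axis, log scale) against its identity to n-R5s122 in percent (x axis), with 1 panel per library and 1 point per copy. The 25 identical copies lie on a single point in each panel, and n-R5s193 is the point at 83.2% that lies close to them.

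The copies with a single changed base show where along the RNA the counts of similar copies part. Over the 6 libraries together, the T62A copies had 91.0% of the counts of n-R5s122, the C44T copies 68.9% and the T33C copy 28%. From the substituted position on, the counts of all 3 kinds equalled those of n-R5s122 to within 1 at each position with at least 50 counts (20, 36 and 47 positions). Summed over the 20 positions before it they were lower, while 3 of these positions in the C44T copy n-R5s120 were equal to within 1.

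In the T62A copies, positions 42 to 61 held 52.9% of the counts that n-R5s122 had there, positions 22 to 41 held 71.7% and positions 1 to 21 held 99.2%. In the C44T copies, positions 24 to 43 held 18.1% and positions 4 to 23 held 77.1%. In the T33C copy, positions 13 to 32 held 14.8% and positions 1 to 12 held 19.6%.

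**Figure D2:**
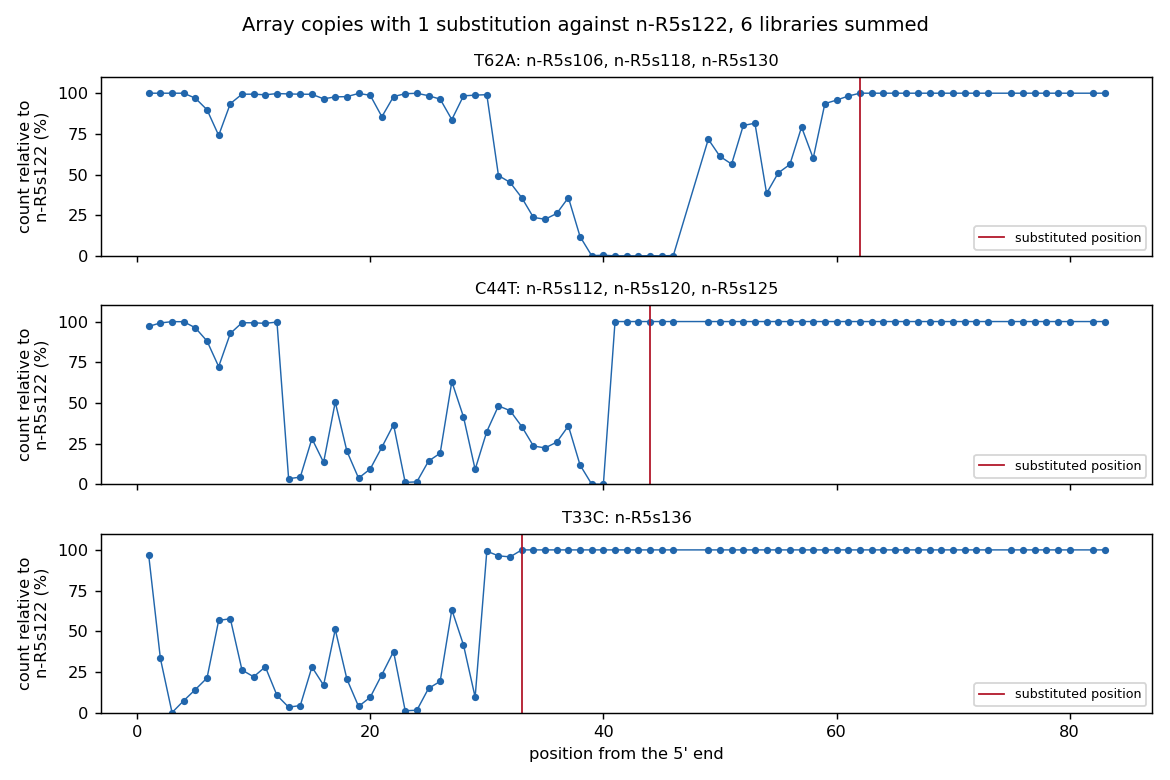
Count of array copies with 1 changed base as a percentage of the count of n-R5s122 at the same position (y axis), along the RNA (x axis, position), 6 libraries summed, for positions where n-R5s122 has at least 50 counts. From the substituted position (vertical line) on the values are 100%, and the loss lies before it, with a lowest value of 0 in all 3 kinds.

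The replicates were compared next, since they decide how the treatments can be compared. In the 25 identical copies replicate 1 had 5.46 times the counts of replicate 2 in NT, 20.4 times in DMS and 1.71 times in CMCT, while the library totals differed by 1.11, 1.11 and 1.76 times. The efficiency of the depletion of ribosomal RNA was not measured in single libraries, and its part in these gaps was not tested.

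Among the scattered copies both wide gaps and equal counts were found. n-R5s193, whose counts are not a separate measurement, had 5.66 times the counts in NT replicate 1 as in replicate 2 and 21.1 times in DMS. The copy n-R5s156 had 7.79 and 19.0 times. n-R5s210 and n-R5s28 had 9.19 and 9.57 times in DMS. Replicate counts differed by at most 1 in 74 of 150 copies in NT, 68 in DMS and 83 in CMCT, and in 63 copies in all 3 treatments, and every one of these copies lies outside the array. n-R5s68 (chr11:26985126-26985207), 1 of the 63, had 1221 and 1222 counts in NT, 588 in both DMS replicates, and 1995 and 1994 in CMCT. The median difference between replicates of the 108 copies elsewhere was 0.0698 times the counting error (the square root of the summed count) in NT, 0.192 times in DMS and 0.0232 times in CMCT. In CMCT 83 of these 108 copies had replicate counts within 1 although the library of replicate 1 had 1.76 times the total of replicate 2.

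Summed over a whole copy or gene, equal replicate counts made up a larger share of the 5S copies than of all genes. Of those with at least 50 counts over both replicates, 37.1% of the 5S copies and 6.44% of the genes differed by at most 1 in NT, 27.7% and 7.20% in DMS, and 55.3% and 7.09% in CMCT. At single positions with at least 50 counts this order did not hold in every treatment. Of the positions of all 5S copies, 28.5% differed by at most 1 in NT, where all transcripts had 20.0%. The DMS replicates gave 10.3% for 5S and 22.5% for all transcripts, and the CMCT replicates 54.8% and 20.7%. In the copies outside the array the shares, in the same order of treatments, were 67.5%, 41.8% and 88.6%, and in the 25 identical copies 9.09%, 1.79% and 28.8%. Along n-R5s122 itself both patterns occurred. At positions 1 to 28, with 114680 and 21018 counts in NT, the NT replicates differed by at most 1 at 2 of 27 positions with at least 10 counts. At positions 57 to 92, with 494 and 488 counts, they did at 15 of 22, and the CMCT replicates, with 2078 and 2076, at 27 of 29. The DMS replicates, with 419 and 324 counts there, did so at 5 of 19. How such equal counts arose was not tested, and p-values that rest on them do not measure the spread between biological replicates.

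**Figure D3:**
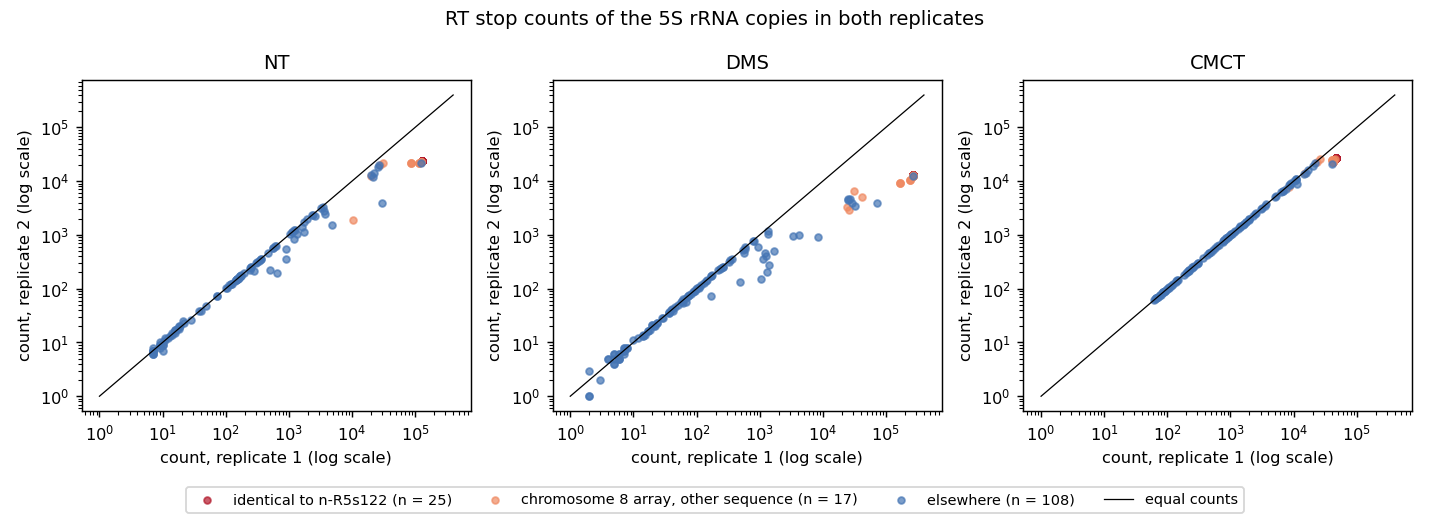
Counts of each 5S copy in replicate 2 (y axis, log scale) against replicate 1 (x axis, log scale), with 1 panel per treatment, and the line of equal counts. Most copies of low count lie on or near the line in all 3 treatments, with exceptions such as n-R5s96 in DMS (172 and 74). The array copies lie below the line, farthest in DMS.

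For the share of 5S rRNA in a library, the counts of all 150 copies were summed and divided by the library total. This share was 2.79% and 0.657% in the NT replicates, 6.13% and 0.357% in DMS, and 0.846% and 0.965% in CMCT. The DMS replicates lay on either side of both NT replicates, and the CMCT replicates lay between them. The mean was 1.72% ± 1.51 (SD, n = 2) in NT, 3.25% ± 4.08 in DMS and 0.906% ± 0.0838 in CMCT. A two-sided exact permutation test gave p = 1 for DMS and for CMCT against NT, where the smallest p that 2 against 2 libraries allow is 0.33. With each distinct sequence taken once, the shares were 0.687% and 0.221% in NT, 1.40% and 0.102% in DMS, and 0.281% and 0.382% in CMCT. Several distinct sequences have nearly the same counts, so this sum too may hold a read more than once. A single identical copy held 0.0698% and 0.0142% in NT, 0.158% and 0.00856% in DMS, and 0.0187% and 0.0193% in CMCT.

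For single copies, DMS and CMCT were each compared with NT by edgeR's quasi-likelihood test, fitted on all 13216 genes with an adjusted p of 0.05 as threshold. With DMS, 62 of the 150 copies were lower and none higher, against 12.5% of all genes lower and 13.8% higher. With CMCT, 83 of the 150 were higher and none lower, against 15.0% of all genes higher and 13.9% lower. Every listed copy had at least 0.544 RT stops per base in each CMCT replicate. The lowest values were 0.0574 and 0.0513 in NT, and 0.0167 and 0.00877 in DMS. If copies of few counts were listed through CMCT alone, this favours higher calls with CMCT, which was not tested. The median log2 fold change of the copies was -0.88 with DMS and 1.28 with CMCT, and that of all genes tested was 0.01 and 0.11.

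All copies past the threshold lie outside the array, where 62 of 108 were lower with DMS and 83 of 108 higher with CMCT. Of the 62, 39 had replicate counts within 1 of each other in both NT and DMS, and of the 83, 62 had such counts in both NT and CMCT. Among copies without such equal counts, 23 of 87 were lower with DMS and 21 of 77 higher with CMCT. The 87 and the 77 include the 42 array copies, none of which passed, so these shares cannot be set against those of the 108. The called copies still include some whose replicates hardly differ. An example is n-R5s71, with 2381 and 2393 counts in NT, 777 and 770 in DMS, and 9040 in both CMCT replicates. The remaining calls are thus not free of this pattern. Without NT replicate 2 the DMS count fell from 62 to 33, and without NT replicate 1 the CMCT count fell from 83 to 50.

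In the array none of the 42 copies passed the threshold in either comparison. The reference copy n-R5s122 had a log2 fold change of 0.56 ± 0.94 (SE, n = 2 per group) with DMS, with an adjusted p of 0.691 in edgeR. With CMCT it had -1.45 ± 0.96 and an adjusted p of 0.290. Its counts overlapped between DMS and NT, and the spread between replicates was as large as these differences.

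The 5 copies with the largest fall with DMS had 120 to 176 counts in NT replicate 1 and 10 to 24 in DMS replicate 1. The first, the 5S_rRNA copy ENSMUST00000158974 (chr11:67866837-67866962, 61.1% identity), had 120 and 121 counts in NT and 10 and 11 in DMS, a log2 fold change of -3.98 ± 0.43 with an adjusted p of 0.000143 in edgeR. ENSMUST00000157123 (chr5:65527541-65527659) had 148 in both NT replicates and 14 and 13 in DMS. n-R5s158, ENSMUST00000157450 and n-R5s219 had log2 fold changes of -3.70, -3.38 and -3.04. The 5 copies were picked as the largest falls past the threshold with both replicates moving alike. That their DMS and NT replicates did not overlap is thus no separate result. Their replicate counts hardly differed, so the adjusted p-values do not measure the spread between biological replicates.

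The 5 copies with the largest rise with CMCT had few counts in NT. They may be listed only through their CMCT counts, which was not tested, and their rise is then no separate support. n-R5s30 (chr16:5324129-5324250, 76.2% identity) had 7 counts in both NT replicates and 102 in both CMCT replicates, a log2 fold change of 3.39 ± 0.48 with an adjusted p of 0.000593 in edgeR. n-R5s172, with 7 and 6 counts in NT and 88 in both CMCT replicates, had a log2 fold change of 3.28. ENSMUST00000157872, ENSMUST00000158582 and n-R5s97 had 3.24, 3.20 and 3.18. All 5 were picked by the same rule, so that their NT and CMCT replicates lay apart is no separate result. Their CMCT replicates hardly differed, and the same limit holds for the adjusted p-values.

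As examples with more counts, 2 copies that passed in both comparisons are given. n-R5s33 (chr16:33001989-33002107), which matches n-R5s122 at 96.6% of bases, had 3463 and 3359 counts in NT, 1338 and 1187 in DMS, and 10949 and 10919 in CMCT. Its log2 fold change was -1.91 ± 0.33 with DMS (adjusted p of 0.00158 in edgeR) and 1.21 ± 0.33 with CMCT (adjusted p of 0.0152). n-R5s2 on chromosome X had 3208 and 3177 counts in NT, 1375 and 1030 in DMS, and 10721 and 10711 in CMCT. In both copies the 3 treatments did not overlap, which is no separate result for copies picked past both thresholds. Their CMCT replicates differed by only 30 and 10 counts, although the library totals differed by 1.76 times. The p-values here thus rest in part on replicates that hardly differ. n-R5s33 and n-R5s2 were chosen after their values were seen, as the copies of highest count past both thresholds.

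**Figure D4:**
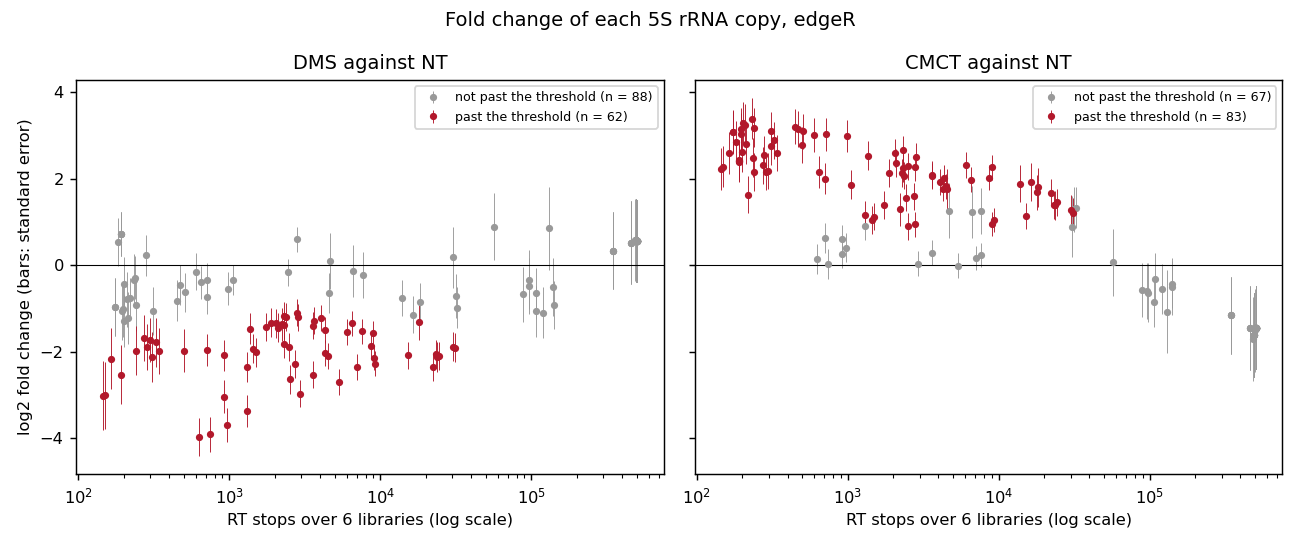
Log2 fold change of each 5S copy (y axis, with its standard error) against its RT stops over 6 libraries (x axis, log scale), for DMS and for CMCT against NT. Copies past the threshold (red) number 62 and 83 and have fewer counts than the array copies, which lie at the right without passing it.

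For the positions, all copies were aligned to n-R5s122 and summed, and each position was expressed as its share of the 5S counts of the library. Counts reached position 92, so the last 27 bases were not measured. In the predicted fold position 9 ends the first helix, and positions 10 to 12 are unpaired. Positions 9 to 12 were summed as a window, chosen after the profile was seen. Single positions outside it were stronger than some within it, such as position 17 in DMS replicate 2 (9.33%) and position 4 in DMS replicate 1 (9.55%). The 4 positions together held 57.1% and 67.8% of the 5S counts in NT, 46.8% and 30.3% in DMS, and 47.4% and 33.3% in CMCT. Their summed share was lower in each treated library than in both NT libraries, and they are stops that occurred without a reagent. With DMS, positions 9 and 10 were lower in both replicates, while positions 11 and 12 were not. A at position 11 held 4.47% and 7.37% in NT and 1.37% and 16.3% in DMS. T at position 12 held 16.0% and 12.1% in NT and 19.9% and 3.80% in DMS.

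A position was counted as higher where its share in both treated replicates exceeded that in both NT replicates, among positions with at least 50 counts. With DMS this held for 13 of 91 positions, against 33.7% of such positions over all transcripts (shares of the own transcript). The DMS count was 22 with scaling to the library total, 64 without replicate 1 and 31 without replicate 2. With 1 replicate left out, the rule compares 1 treated with 1 NT library and is easier to meet. Those 2 counts are thus not comparable with the 13 or with the 33.7%. With CMCT it held for 55 of 91, against 32.1%. The minimum count applied to the sum over copies for 5S rRNA, and to single transcripts over all transcripts. In n-R5s122 alone, 11 of 66 positions that reached it were higher with DMS and 47 of 77 with CMCT. Of the 13 positions higher with DMS, 5 were A, 5 were C, 1 was G and 2 were T.

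The largest differences with DMS, by the lower treated over the higher NT share, lay at positions 3, 42, 40 and 41 among those with counts in NT. C at position 3 held 0.000395% and 0.00187% of the 5S counts in NT, and 1.19% and 1.04% in DMS. A at position 42, in the short stem that closes a hairpin loop of the predicted fold, held 0.171% and 0.139% in NT and 1.73% and 3.89% in DMS, at least 10.1 times as much. G at position 41 and T at position 40 held at least 4.54 and 4.83 times their NT share in each DMS replicate. A at position 22 held 0.441% and 0.926% in NT and 1.03% and 5.04% in DMS, at least 1.11 times as much. The differences at A of positions 5 and 13 were at least 1.89 and 1.48 times, and those at positions 26, 33, 39 and 46 from at least 1.02 to at least 1.31 times. A at position 90 and C at position 91 had no count in NT, 104 in each DMS replicate at position 90, and 28 and 36 at position 91. In n-R5s122 alone the DMS replicates had 2 counts each at position 90, and 0 and 1 at position 91. Both positions thus reach the minimum count only in the sum over copies.

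By base, 10 of 44 measured A and C positions (22.7%) and 3 of 47 G and T positions (6.38%) were higher with DMS. Over all transcripts these shares were 44.2% and 19.2%. In CMCT, 32 of 47 G and T positions (68.1%) and 23 of 44 A and C positions (52.3%) were higher, against 35.6% and 28.2% over all transcripts. By single base the CMCT shares in 5S rRNA were 71.4% for G, 63.2% for T, 61.1% for A and 46.2% for C, and over all transcripts 23.4%, 41.9%, 30.1% and 27.2%. These shares are a description, with no test.

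With CMCT a continuous stretch was higher. All positions from 48 to 76 had a higher share with CMCT, and together they held 1.87% and 6.26% of the 5S counts in NT, 1.08% and 5.804% in DMS, and 19.9% and 30.6% in CMCT. The largest of these stops were C at position 52, with 0.414% and 1.36% in NT and 4.78% and 7.35% in CMCT, T at position 53, with 0.380% and 1.33% in NT and 4.64% and 7.14% in CMCT, and G at position 56, with 0.328% and 0.756% in NT and 2.55% and 3.91% in CMCT. T at position 40 held 0.0102% and 0.00672% in NT and 0.160% and 0.111% in CMCT, at least 10.8 times as much. From position 57 on, n-R5s122 had nearly equal summed counts in both NT and in both CMCT replicates, as given above, so the difference there rests on replicates that hardly differ. At positions 52, 53 and 56 the summed CMCT counts were nearly equal too, 100029 and 99393, 97048 and 96566, and 53484 and 52828. Those in NT differed more, such as 20962 and 14545 at position 52. The CMCT replicates are thus not shown to be independent at these positions either.

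**Figure D5:**
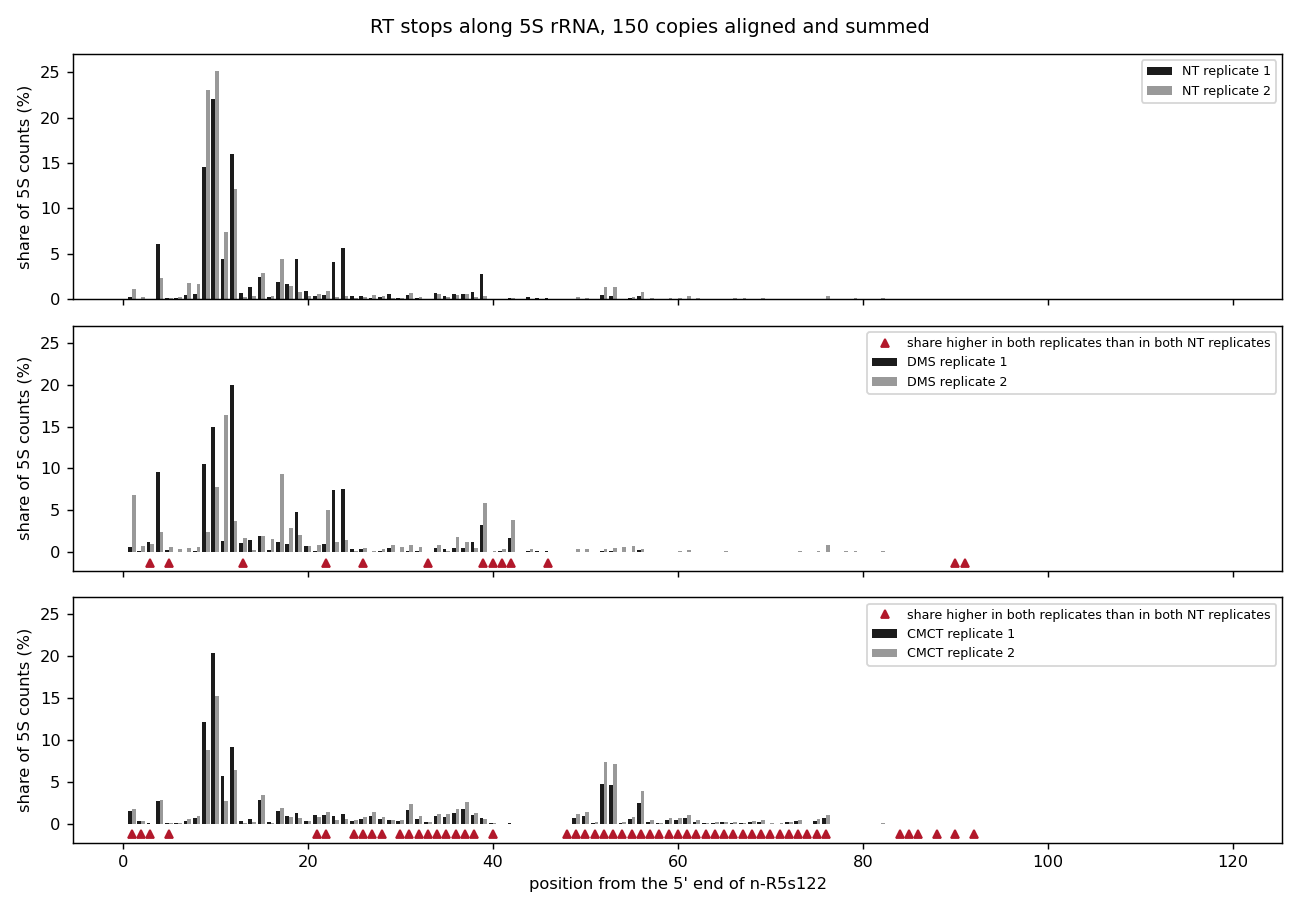
Share of each position in the 5S counts of a library, in percent (y axis), along the RNA (x axis, position in n-R5s122), for the 2 replicates of NT, DMS and CMCT, with triangles at positions higher in both treated replicates than in both NT replicates. NT stops gather at positions 9 to 12, and the CMCT triangles cover every position from 48 to 76 as well as others, most of them before position 41.

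The minimum free energy fold of n-R5s122, predicted by RNAfold without the data, has 39 pairs and 41 unpaired positions. Among the measured positions, 6 of 35 unpaired and 7 of 56 paired positions (17.1% and 12.5%) were higher with DMS. With CMCT these were 21 of 35 and 34 of 56 (60.0% and 60.7%). Among A and C alone, 4 of 20 unpaired and 6 of 24 paired positions (20% and 25%) were higher with DMS. Among G and T alone, 10 of 15 and 22 of 32 (66.7% and 68.8%) were higher with CMCT. The shares of unpaired and paired positions were close in both treatments. This is a description, with no test, and the fold is a prediction of the sequence alone.

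Genes of the 5S particle and of its synthesis were taken as lists for comparison. Of 9 genes of the 5S particle and its maturation, 8 were measured. None passed the threshold with DMS (13.8% of all genes were higher and 12.5% lower), and 3 were higher with CMCT (15.0% of all genes), Rpf2 and Rrs1, assembly factors that bring 5S rRNA to the ribosome, and Ssb, the La protein that binds new RNA polymerase III transcripts. Their log2 fold changes were 0.97 ± 0.26, 0.73 ± 0.25 and 0.78 ± 0.24, with adjusted p of 0.0146, 0.0433 and 0.0280 in edgeR. Rpl5 and Rpl11, which hold free 5S rRNA, had log2 fold changes of 0.30 and 0.79 with DMS and of 0.28 and 0.03 with CMCT, and did not pass it.

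Of 29 genes of RNA polymerase III and its factors, 17 were measured, of which 2 were higher and 1 lower with DMS, and 2 higher and 2 lower with CMCT. These are 11.8% and 5.88% of the list with DMS and 11.8% in each direction with CMCT, none above the shares of all genes given before. The polymerase subunit Polr2k and the TFIIIC subunit Gtf3c6 were higher in both comparisons (log2 fold changes of 1.04 and 0.95 with DMS and of 1.00 and 0.87 with CMCT). The subunit Polr3gl was lower in both (-0.83 and -0.74), and Polr2l, a subunit of all 3 nuclear polymerases, was lower with CMCT (-1.89). The adjusted p of these genes lay between 0.0173 and 0.0465 in edgeR. Next to them with DMS came Ssb (0.55) and Bdp1 (-0.58), with adjusted p of 0.0966 and 0.103. Both comparisons share the NT libraries. Of the counts, 0.0763% in Polr2l, 3.93% in Polr3gl, 19.3% in Polr2k and 77.1% in Gtf3c6 were at positions whose next 25 bases occur once in mm9.

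The 5.8S rRNA, the other small RNA of the large subunit, is made by RNA polymerase I as part of the long precursor. Its gene n-R5-8s1 had 116 and 117 counts in NT, 17856 in both DMS replicates, and 285 and 284 in CMCT. The second, 5_8S_rRNA, had 36 in both NT replicates, 2478 in both DMS replicates and 129 in both CMCT replicates. With DMS both were higher, with log2 fold changes of 6.78 ± 0.42 and 5.64 ± 0.35 (adjusted p of 9.65e-06 in edgeR for each), where no 5S copy was. Here too the replicates were equal to within 1 count.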

How the data were processed

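The authors deposited raw counts of RT stops per transcript position for 6 CIRS-seq libraries, not normalized, and single alignments (all with a score of 0) for RNA-seq. Per the labels, the RNA was ribosomal RNA-depleted and converted with random hexamers. The submitters' processing notes name mm9, Bowtie 1.0.0, bedtools 2.17.0, FastQC 0.10.1 and TopHat2 2.0.6, and the paper a variant of mm9 with E14 single-nucleotide variants. Copies were compared on the reference mm9, and their sequences are not reported here. Files of combined replicates were not used.

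Each genomic position was counted once per gene. edgeR 4.0.16 (TMM, filterByExpr, quasi-likelihood, Benjamini-Hochberg adjustment) was fitted on all 6 libraries without a block, and the fit was tested on simulated data. DESeq2 1.42.0 was an alternative. Copies were aligned to n-R5s122 with Biopython 1.88, and n-R5s122 was folded with RNAfold 2.7.2. Counts per copy were divided by length for copies above the rest. Library totals are those of RT stops. Counting errors cover counting only. The SE of a log2 fold change is its absolute value divided by the square root of edgeR's F statistic. It thus draws on the spread estimated in the fit of all 6 libraries.

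Named were the 5 most counted copies (a tie of 25), the 5 with the largest change in each direction past the threshold, with both replicates moving alike, the n-R5s copies of highest and lowest count, the copy closest to the majority sequence, and the 5 genes of the 2 lists with the lowest adjusted p. The members and lists were chosen with earlier results of these data known. Alternatives were other tools, scalings, filters, a replicate block, left-out libraries, transcripts in place of genes, positions found once in the genome, and other choices of copies, the last added after seeing the data.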

Additional observations from a re-analysis of the deposited data

How the results depend on the processing

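The 5S copies past the threshold with DMS (62) numbered 33 to 59 with 1 library left out, and with CMCT (83) 50 to 91. They were lower with DMS and higher with CMCT in all alternatives run, except that 2 were higher with DMS without DMS replicate 2 and 2 at positions found once in the genome. The calls for DMS were 62 by DESeq2, 60 with RLE scaling and 53 at positions found once in the genome, and for CMCT 83, 73 and 72. At positions found once only 108 copies were tested, against 150 in the other 2 settings. Without copies of equal replicate counts 23 and 21 remained called, some of them with replicates that still hardly differed. With the replicate number as a block, 74 and 90 copies passed. Replicate numbers were not tied to a shared source by the labels, and the replicate differences over 12351 genes correlated with r = 0.56 between NT and DMS and -0.01 between NT and CMCT. Over all genes, calls with DMS (3485) were 5595 by DESeq2, 5616 with the replicate block, 1764 at positions found once and 1719 to 3130 with 1 library left out. With CMCT (3827) they were 4931, 5030, 1141 and 1600 to 4402. The difference in the 5S share was 1.52 percentage points with DMS and -0.82 with CMCT, and with 1 replicate left out -0.30 to 3.34 and -1.95 to 0.31. For the copies elsewhere alone the CMCT difference turned to 0.035. Positions higher with DMS (13) were 22 when scaled to the library total and 31 to 64 with 1 replicate left out. With CMCT (55) there were 47 when scaled to the library total and 70 without either replicate. With 1 replicate left out, the rule for positions compares 1 treated with 1 NT library and is easier to meet. No copy (0) lay at 30 times the median in all 6 libraries. The causes were not tested.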
